A study of Rattus norvegicus with 18 samples.

Results

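The transcriptome of the rat ventral tegmental area (VTA), the midbrain region whose dopamine neurons serve reward, was compared between animals that still had ethanol available at collection and animals that did not. All 18 libraries of the series took part: 6 with ethanol on board and 12 with ethanol absent. The animals were adult male wild-type Sprague-Dawley rats. Control rats (numbered 1 to 6) were fed a Lieber-DeCarli liquid diet without ethanol for 15 or 16 days. Ethanol rats (7 to 12) were fed the same kind of diet with 9% v/v ethanol for that time and were collected with 0 h of withdrawal. The withdrawal group (rats 13 to 18) had the ethanol diet too and was collected 24 h after it ended. All of them, controls included, lived on a liquid diet, and each library came from the dissected VTA of 1 rat. Blood ethanol is not given in the sources used here, so "on board" rests on the label of 0 h. The question is which differences need ethanol to be present and are gone 24 h later.

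Ethanol acts directly on GABA-A and NMDA receptors and on several potassium channels, and in the brain it is oxidised to acetaldehyde and acetate. Repeated exposure is followed by adaptations that become visible as a withdrawal state once ethanol is removed. Some transcripts follow the drug itself and return when it has cleared, some overshoot in withdrawal, and some stay shifted. Comparing the ethanol rats with both ethanol-free groups bears on which kind a gene belongs to.

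The libraries held 29.6 to 45.1 M counted fragments (median 38.4 M). Values are in CPM (counts per M counted fragments, scaled between libraries), and differences are on the log2 scale with their SE from edgeR. A gene with no count could still have had up to 3 counts, or 0.0666 to 0.104 CPM by library, counting error alone considered. The summed level of 21 dopamine neuron markers ranged from 1230 to 3704 CPM in control, 510 to 3851 CPM in ethanol and 453 to 3151 CPM in withdrawal rats, so the dopamine neuron signal varied widely within every group. The lowest sum of all was that of withdrawal rat 17. Some libraries stood apart. Withdrawal rat 13 had 16850 CPM of pineal gland markers where the next library had 10.8 CPM, 705 CPM of choroid plexus markers against at most 24.3 CPM, and the lowest astrocyte and myelin sums of all. Ethanol rat 7 had 576 CPM of hypothalamus and thalamus markers against at most 111 CPM elsewhere. Control rat 3 was highest in meninges markers (730 CPM, next 224.5 CPM), of which Col1a2 and Ogn were at 0 in every library. Markers of forebrain excitatory neurons were high in withdrawal rat 13 (1059 CPM), control rat 5 (548 CPM) and ethanol rat 8 (439 CPM). Values without these rats are given beside the results that they move. In tissue of mixed cells, fewer cells of a type and less RNA per cell cannot be told apart. The name of each library carries an index sequence, taken here as a possible batch although the labels do not say what it stands for. Its first part was shared by rats 1 to 8, by rats 9 to 16 and by rats 17 and 18, so a within-index value compares ethanol rats 7 and 8 with the control rats, or ethanol rats 9 to 12 with withdrawal rats 13 to 16. No control rat shared a first index with a withdrawal rat. A difference between control and withdrawal therefore cannot be told apart from a difference between indices.

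No gene of 17637 passed an adjusted p of 0.05 for ethanol against its absence in the edgeR quasi-likelihood test (0% called), and 2 genes had an adjusted p under 0.10 (0.0113%). At an unadjusted p under 0.05 there were 1746 genes (9.9%), of which 896 were higher with ethanol (5.08%) and 850 lower (4.82%). DESeq2 called 169 genes (88 higher and 81 lower, 0.988%) and limma-voom 0. Differing from control and from withdrawal in the same direction was a stricter demand. By the larger of those p values 0 genes passed after adjustment, 403 had an unadjusted value under 0.05 (2.28%; 222 higher and 181 lower), and DESeq2 called 3, Slc25a23, Hmcn1 and Edn1. Both of these comparisons use the same 6 ethanol rats. The 6 ethanol rats lay above all 12 others for 13 genes (0.0737%) and below all 12 for 11 (0.0624%). Withdrawal against control, the contrast that shows whether ethanol-free rats differ among themselves, also gave 0 adjusted calls with edgeR, 1732 genes at an unadjusted p under 0.05 (9.82%) and 47 calls with DESeq2.

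The calls depended on withdrawal rat 13. Without it edgeR called 27 genes (0.152%), 21 of them higher with ethanol. With 1 surrogate variable in the model and all 18 rats it called 20 (0.113%), and all 20 were among those 27. In these 2 fits and in DESeq2, 14 genes were called in common (11 higher, 3 lower), among them Edn1, Hmcn1, Slc25a23, Nkain4, Ndrg2, Fgfr3 and Capn6. These fits share their rats, so the overlap is a description. In the text that follows, "higher" and "lower" name the side on which values lay, and no gene named passed the edgeR test over all 18 rats.

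Of the 20 genes with the lowest p and a mean of at least 1 CPM, 14 were higher and 6 lower with ethanol, with adjusted p from 0.0617 to 0.168. In 11 of them the 95% interval of withdrawal minus control included 0. In 8 it lay past 0 on the side opposite to ethanol, so the withdrawal rats lay beyond control, in a contrast that also differs in index. In 1, Capn6, it lay on the same side as ethanol. An interval that includes 0 does not show a full return; its width gives what could have been missed.

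Edn1 and Hmcn1 led the genes that were near control again at 24 h. Edn1 (chromosome 17, 22136814 to 22143745, Rnor_6.0) encodes the vasoconstrictor peptide endothelin 1. It was at 2.20 to 3.52 CPM in control (median 3.05), 4.84 to 10.4 CPM in ethanol (median 6.41) and 2.45 to 5.93 CPM in withdrawal rats (median 2.97). Every ethanol rat was above every control rat, and withdrawal rat 15 was the one ethanol-free animal inside the ethanol range. The log2 difference of ethanol from its absence was 1.15 ± 0.18 (edgeR adjusted p = 0.0617), with 1.24 against control, 1.06 against withdrawal and 0.18 (95% interval -0.28 to 0.65) between the ethanol-free groups. It was 1.35 within the first shared index and 0.93 within the second. The endothelin receptors lay close together in all groups: Ednra had a log2 difference of -0.09 (unadjusted p = 0.590) and Ednrb, the receptor of astrocytes and endothelium, 0.06 (unadjusted p = 0.619). Of 6 measured endothelin system genes, Edn1 alone had an unadjusted p under 0.05.

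Hmcn1 (chromosome 13, 67799791 to 68360664), which encodes hemicentin 1, an extracellular matrix protein, was the leading gene in the other direction. Control rats had 7.81 to 10.7 CPM (median 9.11), ethanol rats 5.31 to 7.77 CPM (median 5.69) and withdrawal rats 7.54 to 11.3 CPM (median 10.2). Only ethanol rat 11 reached into the range of the others, where withdrawal rat 16 was lowest. The log2 difference was -0.66 ± 0.10 (adjusted p = 0.0617), with 0.12 (95% interval -0.12 to 0.36) between withdrawal and control. The 2 within-index values were -0.66 and -0.63.

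Slc25a23 (chromosome 9, 9987988 to 10003599) encodes a calcium-regulated mitochondrial carrier of ATP-Mg and phosphate. Control rats had 197 to 225 CPM (median 211), ethanol rats 243 to 309.8 CPM (median 256) and withdrawal rats 188 to 232 CPM (median 219). All 6 ethanol rats lay above all 12 others. The log2 difference was 0.32 ± 0.06 (adjusted p = 0.140) and that between the ethanol-free groups 0.03 (95% interval -0.11 to 0.16), the narrowest of these 3 genes. The plot of single rats shows that the ethanol-free groups lie side by side for these genes.

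**Figure D1:**
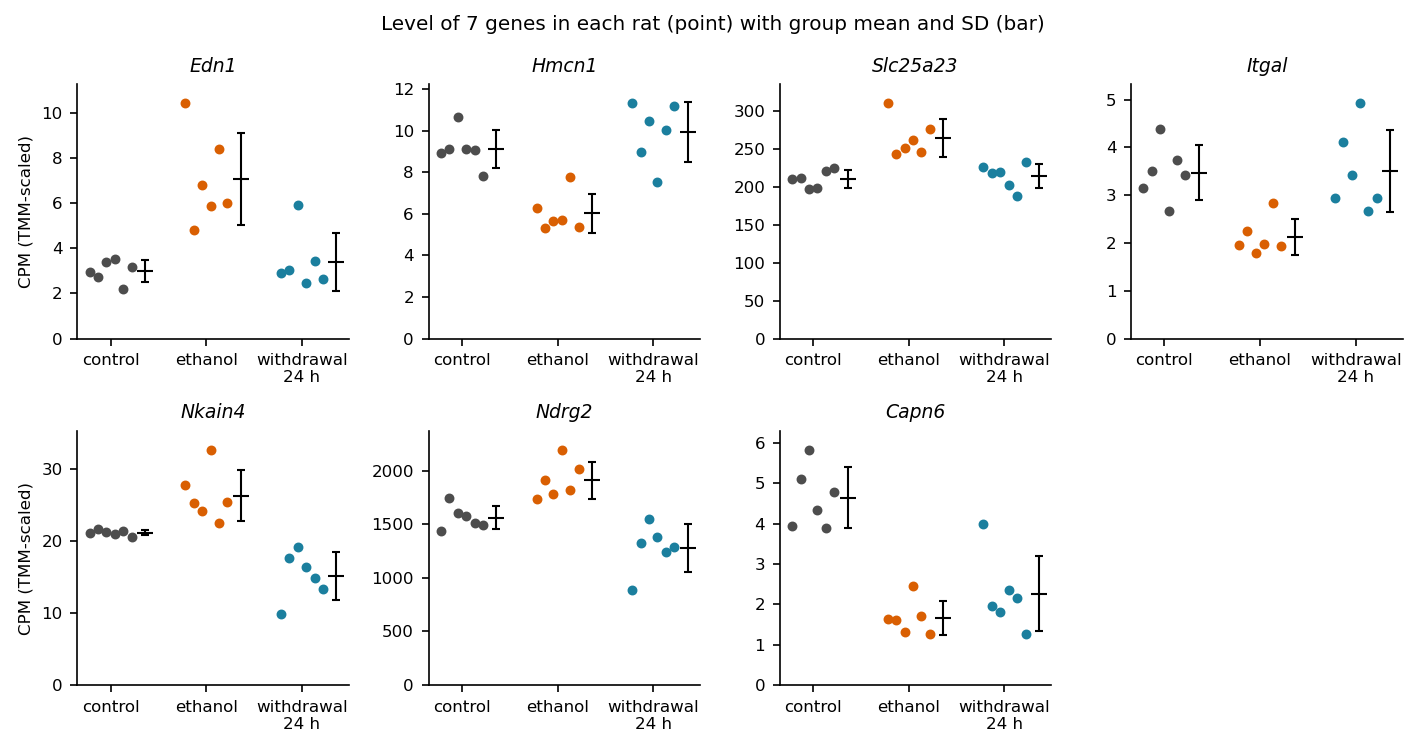
CPM of 7 genes (vertical axes, linear and from 0) in each of 18 rats, by group, with the group mean and SD as a bar. In Edn1, Hmcn1, Slc25a23 and Itgal the ethanol rats stand off from both other groups; in Nkain4 the withdrawal rats lie below control, and in Ndrg2 they lie below the control mean; in Capn6 the withdrawal rats other than rat 13 remain near the ethanol rats.

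Differences of the same form were seen in genes of other roles. Itgal, the alpha chain of the leukocyte integrin LFA-1, was at 2.68 to 4.38 CPM in control, 1.80 to 2.83 CPM in ethanol and 2.67 to 4.92 CPM in withdrawal rats, a log2 difference of -0.71 ± 0.15, with 5 of 6 ethanol rats below all others. Hrk, a BH3-only activator of apoptosis, was at 9.05 to 13.6, 11.9 to 19.7 and 8.94 to 14.4 CPM in the same order of groups (log2 difference 0.54 ± 0.12). Nenf, which encodes the secreted factor neudesin, was at 26.5 to 32.2, 33.6 to 38.7 and 28.3 to 32.8 CPM, with all 6 ethanol rats above all 12 (0.24 ± 0.05). For Spop, a substrate adaptor of a cullin ubiquitin ligase, the difference was 0.19 ± 0.04, and for Farp1, a guanine nucleotide exchange factor of dendrites and synapses, 0.26 ± 0.06. Each of these 5 had an adjusted p of 0.168, and the largest difference between withdrawal and control among them was 0.09, in Hrk. Cltc, the clathrin heavy chain, was lower in all 6 ethanol rats than in any other rat, by a small amount: 915 to 1012 CPM against 1017 to 1209 CPM in control and 1034 to 1177 CPM in withdrawal (log2 difference -0.17 ± 0.05, adjusted p = 0.218). Degs2, a sphingolipid desaturase named here after its values were seen because leaving out withdrawal rat 18 made it the one called gene, was at 6.12 to 8.10 CPM in ethanol and 3.36 to 5.28 CPM in control rats. Withdrawal rats had 3.04 to 4.78 CPM apart from rat 18 at 7.61 CPM.

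**Figure D2:**
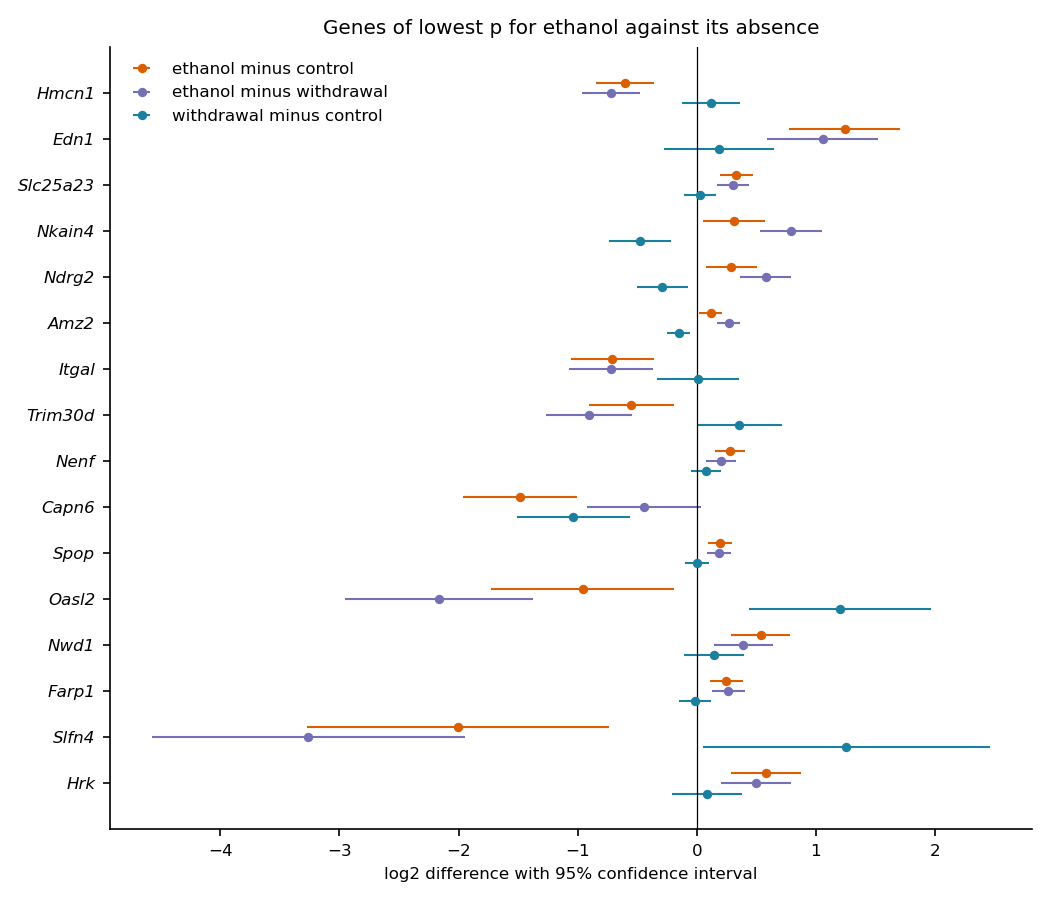
Log2 differences (horizontal axis) with 95% confidence intervals for named genes of lowest p, for ethanol minus control, ethanol minus withdrawal and withdrawal minus control. Pmch, whose difference comes from 1 rat, genes without a proper symbol and 1 other gene are left out; Edn1, Hmcn1, Slc25a23, Itgal, Spop and Farp1 have a withdrawal minus control interval around 0, and Capn6 does not.

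Genes typical of astrocytes, the glia that clear transmitters and support neuronal metabolism, formed a set that was higher with ethanol. Of 15 measured astrocyte markers, 13 had a log2 difference above 0, 7 had an unadjusted p under 0.05 on that side and 0 on the other, where 5.08% and 4.82% of all genes did, and the list's median was 0.24 against -0.01 for all genes. Against control 4 were higher and 0 lower (3.1% and 2.74% of all genes). Against withdrawal 6 were higher and 1 lower (5.95% and 9.38%), and 3 were higher against both (1.26%). Without withdrawal rat 13, whose astrocyte sum of 6788 CPM was the lowest, 7 were again higher (7.09% of all genes were then) and the median was 0.19; without rats 5, 8, 13 and 17 it was 6 (7.59% of all genes). Markers of myelinating oligodendrocytes lay on the other side: 11 of 12 were below 0 with a median of -0.08, and 0 had an unadjusted p under 0.05. Without rat 13, however, 6 of these markers were lower (6.72% of all genes) with a median of -0.16, and without rats 5, 8, 13 and 17 there were 8 (6.99% of all genes) with a median of -0.20. Their part in the astrocyte result was not tested. Ndrg2, an abundant astrocyte gene, was at 1437 to 1742 CPM in control, 1733 to 2194 CPM in ethanol and 882 to 1547 CPM in withdrawal rats. The log2 difference was 0.43 ± 0.09 (adjusted p = 0.168), and 5 of 6 ethanol rats were above all others. Withdrawal rats were below control by 0.29 (log2 -0.29, 95% interval -0.50 to -0.07). Fgfr3, a growth factor receptor, was at 196 to 214 CPM in control, 228 to 282 CPM in ethanol and 139.7 to 238 CPM in withdrawal rats (0.31 ± 0.08), with -0.01 (95% interval -0.20 to 0.19) between the ethanol-free groups. Gja1, connexin 43 of the astrocyte gap junction, differed by 0.24 ± 0.07. Not all markers lay on that side: Slc1a2, the main astrocyte glutamate transporter, had -0.50 (unadjusted p = 0.054), with 14.0 to 48.6 CPM in withdrawal rats and 11.5 to 20.8 CPM in ethanol rats. Its level was far below that of Ndrg2 in every rat, and how fully its reads were counted was not tested. The total astrocyte signal overlapped between groups (10530 to 12400 CPM in control, 11140 to 14500 CPM in ethanol, 6788 to 12470 CPM in withdrawal), and how far the amount of astrocytes in the dissection enters these values was not tested.

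Nkain4, which encodes a partner protein of the sodium pump and is not on the marker list, had a similar course. It was at 20.7 to 21.7 CPM in control, 22.6 to 32.7 CPM in ethanol and 9.84 to 19.2 CPM in withdrawal rats, and no group overlapped another. The difference of ethanol from its absence was 0.55 ± 0.11 (adjusted p = 0.168; 0.0247 without withdrawal rat 13), made of 0.31 against control and 0.79 against withdrawal. Withdrawal was below control by a log2 of -0.48 (95% interval -0.74 to -0.22), and by -0.38 without rat 13. Timp4, an inhibitor of matrix metalloproteinases, was above all 12 others in all 6 ethanol rats (50.8 to 74.8 CPM, against 36.9 to 50.5 CPM in control and 28.0 to 44.5 CPM in withdrawal), a difference of 0.43 ± 0.10. Amz2, a metallopeptidase, followed the same order of groups by smaller steps (0.19 ± 0.04), with withdrawal below control (-0.15, 95% interval -0.25 to -0.05).

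Capn6, a calpain without protease activity, had group means below control both with ethanol and in withdrawal. It was at 3.89 to 5.83 CPM in control, 1.26 to 2.44 CPM in ethanol and 1.27 to 4.00 CPM in withdrawal rats, where 5 of 6 had at most 2.35 CPM. Its difference of ethanol from control was -1.48 ± 0.23, and that of withdrawal from control -1.04 (95% interval -1.51 to -0.56). Red blood cell genes behaved alike in this respect: Hbb, a beta-globin, was at 81.4 to 217 CPM in control, 22.4 to 94.8 CPM in ethanol and 39.9 to 80.6 CPM in withdrawal rats, with a log2 difference of -1.37 against control and -0.01 against withdrawal. Of 5 red blood cell markers 5 were lower than control at an unadjusted p under 0.05 (2.74% of all genes were) and 0 differed from withdrawal in either direction (5.95% of all genes were higher and 9.38% lower). How much blood each dissection held was not measured, and globin genes have near-identical copies between which reads can be split.

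The gene list with the largest share of members at an unadjusted p under 0.05 was that of genes induced by interferons, the antiviral cytokines. Of 28 measured genes, 28 were lower with ethanol, 26 of them with an unadjusted p under 0.05 (4.82% of all genes were), and the median log2 difference was -0.90. In 14 the p was under 0.05 against both control and withdrawal, where 1.03% of all genes were. The median was -0.53 against control and -1.25 against withdrawal, and withdrawal lay above control by 0.72, so the ethanol-free groups were not alike. The mean log2 CPM of the list was 2.54 to 3.59 in control (median 2.88), 1.86 to 2.64 in ethanol (median 2.37) and 2.82 to 4.25 in withdrawal rats (median 3.52). Withdrawal rats 13, 16 and 17 and control rat 3 were the highest. Without rat 13 the count was again 26 (6.72% of all genes were then lower) and the median -0.83, without control rat 3 it was 25 (4.49% of all genes) and -0.78, and without rats 5, 8, 13 and 17 it was 23 (6.99%) and -0.63. Within the shared indices the medians were -0.58 and -1.24. The members belong to 1 induced program, so they are not 28 separate results.

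**Figure D3:**
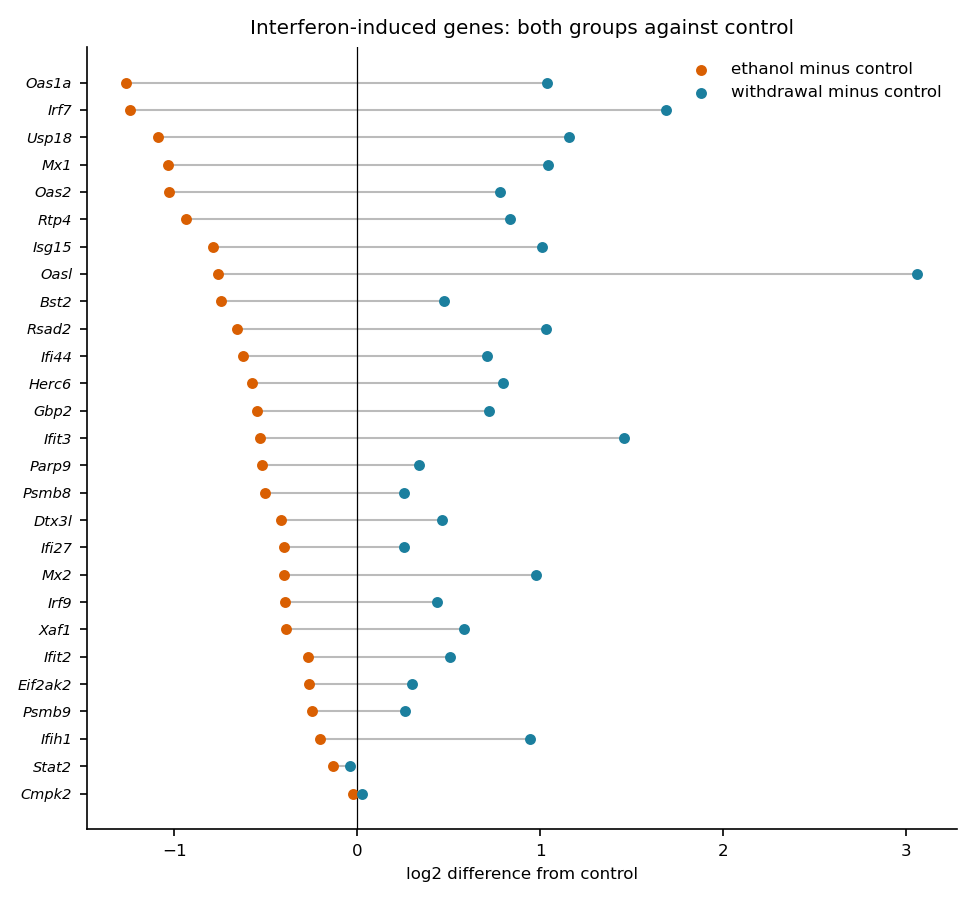
Log2 difference from control (horizontal axis) of interferon-induced genes (1 of the 28 measured is not drawn) in ethanol rats and in withdrawal rats, joined by a line for each gene. All genes drawn lie below 0 in ethanol rats, and all but 1 lie above 0 in withdrawal rats; both sets of points share the control rats.

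Irf7, the transcription factor that amplifies the interferon response, was at 2.97 to 11.8 CPM in control (median 6.20), 1.41 to 4.81 CPM in ethanol (median 2.57) and 5.08 to 53.9 CPM in withdrawal rats (median 16.8). In 4 of 6 ethanol rats it was below every other rat, and withdrawal rats 13, 16 and 17 had 25.8 CPM or more. The log2 difference was -2.09 ± 0.48 (adjusted p = 0.168). Irf9, the DNA-binding subunit of the interferon-activated complex, was at 22.5 to 33.4 CPM in control, 17.0 to 22.4 CPM in ethanol and 23.3 to 50.6 CPM in withdrawal rats, so that all 6 ethanol rats lay below all 12 others, by a narrow margin between ethanol rat 11 and control rat 1 (-0.61 ± 0.15). Rsad2, the antiviral enzyme viperin, was at 3.24 to 5.86, 2.38 to 3.38 and 3.17 to 17.4 CPM (-1.17 ± 0.29). Oas1a, a sensor of double-stranded RNA, had -1.78, Bst2, a tether of budding virus particles, -0.98, and Parp9, an interferon-induced ADP-ribosyltransferase, -0.69. Of genes outside the list, Oasl2, Slfn4 and Trim30d were among the 20 of lowest p, and Dhx58 was among those below all 12 others. Oasl2 was at 5.90 to 13.0, 2.54 to 6.06 and 6.65 to 34.4 CPM (-1.56 ± 0.34). Slfn4, a Schlafen family gene, was at 1.72 to 9.68, 0.38 to 2.15 and 2.68 to 23.1 CPM (-2.63 ± 0.57). Trim30d (-0.73 ± 0.15) and Dhx58, a regulator of RNA sensing (-0.79 ± 0.21), were each below all 12 others in 6 of 6 ethanol rats. The margins were narrow. Trim30d was at 3.355 CPM in ethanol rat 11 and 3.357 CPM in control rat 1. Dhx58 was at 4.77 CPM in ethanol rat 11 and 4.83 CPM in control rat 4. Schlafen, Oas and Trim30 genes have close relatives, between which reads can be split.

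The promoter sequences of the list members were read from RefSeq (build GRCr8). The window ran from 250 bases before to 50 bases after the start of each gene. The core of the interferon-stimulated response element, GAAA and again GAAA with any 2 bases between them, was searched on both strands. Of 28 measured members 21 had a window, and 13 of these held a match (61.9%), compared with 1312 of 33469 windows of all genes (3.92%). A match is a description of the letters, not a test of binding. The list was chosen as genes induced by interferons, so its share describes that choice and does not bear on ethanol. The windows of the 3 matching members with the lowest p are shown 5′ to 3′ on the strand of the gene, with the match in capitals: Irf7 at chr1:205799974-205800273 (minus strand), Rsad2 at chr6:48788071-48788370 (minus strand) and Oas1a at chr12:41330216-41330515 (plus strand). In Irf7 and Rsad2 the match lies on the opposite strand, and in Oas1a 2 matches overlap.
Irf7: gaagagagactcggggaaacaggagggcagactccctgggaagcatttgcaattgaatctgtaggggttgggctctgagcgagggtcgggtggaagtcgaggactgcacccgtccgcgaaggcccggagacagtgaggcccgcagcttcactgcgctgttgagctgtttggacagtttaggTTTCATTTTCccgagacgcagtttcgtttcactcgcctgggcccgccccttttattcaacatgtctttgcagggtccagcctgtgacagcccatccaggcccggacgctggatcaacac
Rsad2: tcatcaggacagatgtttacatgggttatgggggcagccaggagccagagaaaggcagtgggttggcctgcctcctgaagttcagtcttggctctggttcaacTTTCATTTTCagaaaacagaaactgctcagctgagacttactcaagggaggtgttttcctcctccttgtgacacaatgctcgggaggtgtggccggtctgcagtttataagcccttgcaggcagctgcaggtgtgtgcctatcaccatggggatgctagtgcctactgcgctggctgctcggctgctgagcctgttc
Oas1a: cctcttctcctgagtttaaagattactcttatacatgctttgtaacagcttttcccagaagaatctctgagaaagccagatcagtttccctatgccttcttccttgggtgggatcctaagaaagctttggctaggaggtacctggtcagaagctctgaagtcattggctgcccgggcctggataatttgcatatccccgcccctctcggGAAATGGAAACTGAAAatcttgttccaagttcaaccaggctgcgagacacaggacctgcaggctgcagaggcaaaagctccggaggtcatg

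Complement and MHC class II genes, which serve innate tagging and antigen presentation, were lower too: 16 of 16 were below 0 with a median of -0.67, and 5 had an unadjusted p under 0.05 (4.82% of all genes were lower at that threshold). This count was 3 without control rat 3 (4.49% of all genes), which had the highest list mean (4.70), and 9 without rats 5, 8, 13 and 17 (6.99%). C4b was at 1.66 to 8.58 CPM in control, 0.46 to 2.45 CPM in ethanol and 2.82 to 10.7 CPM in withdrawal rats (-1.85 ± 0.43, adjusted p = 0.168), and every ethanol rat lay below every withdrawal rat. Cfb, a component of the alternative pathway, had -0.77. C3, the central component, was lower than control in withdrawal too. It was at 57.6 to 97.0 CPM in control, 22.4 to 56.2 CPM in ethanol and 23.8 to 67.4 CPM in withdrawal rats, with withdrawal below control by a log2 of -0.71 (95% interval -1.25 to -0.17). The members of 1 list thus differed in their course. Of 14 microglia markers, the cells that make much of the brain's complement, 0 had an unadjusted p under 0.05, and their summed level was 728 to 909.9 CPM in control, 634 to 1120 CPM in ethanol and 719 to 979.8 CPM in withdrawal rats.

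**Figure D4:**
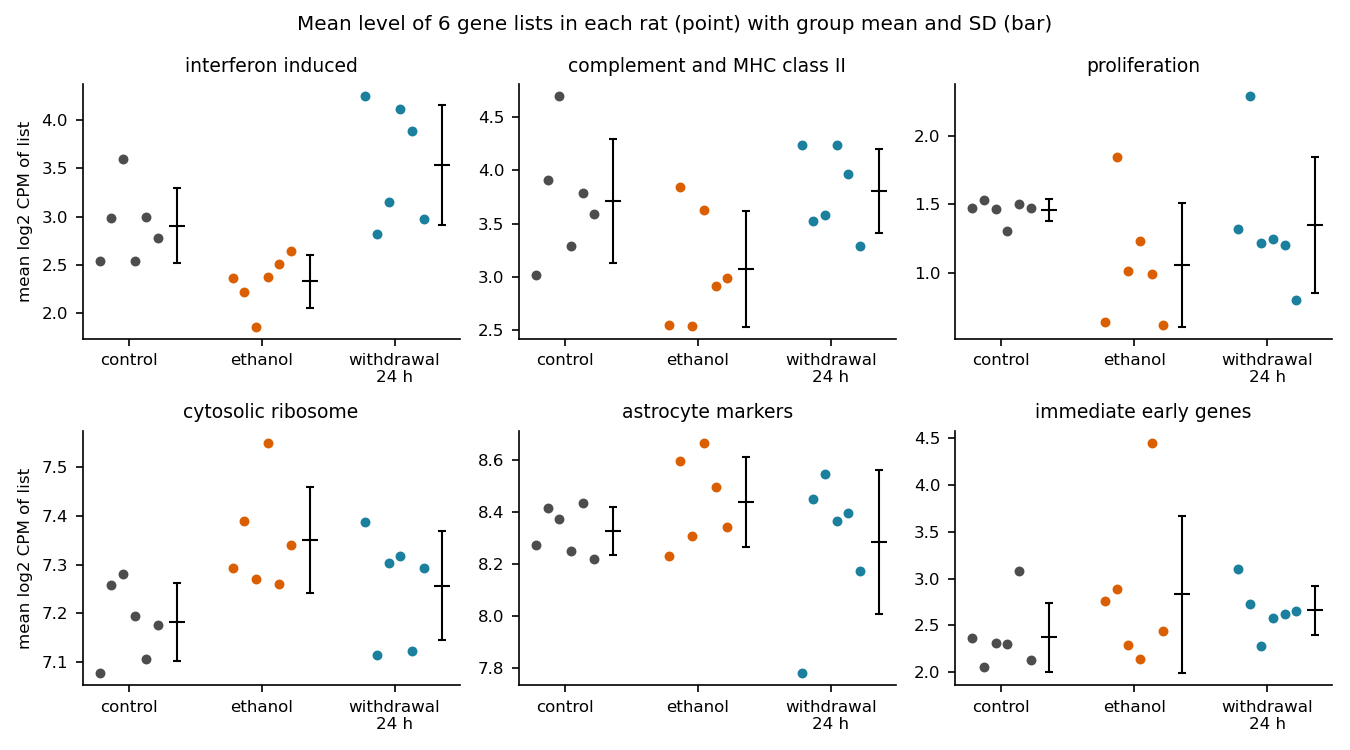
Mean log2 CPM (vertical axes, not from 0) of the measured members of 6 gene lists in each rat, with the group mean and SD as a bar. Interferon-induced genes are at 1.86 to 2.64 in ethanol rats and 2.82 or more in withdrawal rats; the immediate early genes of ethanol rat 11 stand far above all other rats.

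Among 14 proliferation genes, 6 had an unadjusted p under 0.05 and were lower (4.82% of all genes were), and 0 were higher. Against control alone 1 was lower (2.74% of all genes), against withdrawal 6 were (9.38%), and both conditions held for 1. The 6 were Pcna and the MCM genes Mcm2, Mcm3, Mcm4, Mcm5 and Mcm6, the sliding clamp and the helicase subunits of DNA replication. The mitotic members, such as Mki67, Top2a and Cdk1, had p above 0.05. Mcm6 was at 5.25 to 6.94 CPM in control (median 6.05), 3.75 to 5.36 CPM in ethanol (median 4.47) and 4.84 to 7.56 CPM in withdrawal rats (median 6.82). Its difference was -0.49 ± 0.11 (adjusted p = 0.168), with 0.11 (95% interval -0.15 to 0.37) between the ethanol-free groups and -0.43 and -0.66 within the indices. Mcm2 had -0.23, Mcm3 -0.48, Mcm5 -0.75 and Pcna -0.18. Mcm4 had -0.66, but withdrawal rat 13 held 79.8 CPM of it where the next rat had 18.7 CPM, and the difference was -0.30 without it. Without rats 5, 8, 13 and 17 the count was 10 of 14 (6.99% of all genes were lower). Mad2l1, a spindle checkpoint gene outside the list, was below all 12 others in all 6 ethanol rats (4.15 to 5.20 CPM, against 5.56 to 6.92 CPM in control and 5.23 to 8.70 CPM in withdrawal; -0.45 ± 0.10). The mean log2 CPM of the list overlapped between groups, and ethanol rat 8 was above every control rat. For the whole list the median was -0.10 within the first shared index, against control, and -0.635 within the second, against withdrawal rats 13 to 16.

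The E2F-like letters TTTGGCGC and TTTCGCGC were searched in the same promoter windows, on both strands. Of 14 measured proliferation genes 12 had a window, and 5 of these held a match to either (41.7%), compared with 265 of 33469 windows (0.792%). The list was chosen as genes of proliferation, so this share describes that choice and does not bear on ethanol. Binding was not tested. Mcm6 at chr13:42404303-42404602 (minus strand) and Mcm5 at chr19:13488563-13488862 (plus strand) are the matching members with the lowest p. In both, the 2 strings overlap as 1 run, given in capitals.
Mcm6: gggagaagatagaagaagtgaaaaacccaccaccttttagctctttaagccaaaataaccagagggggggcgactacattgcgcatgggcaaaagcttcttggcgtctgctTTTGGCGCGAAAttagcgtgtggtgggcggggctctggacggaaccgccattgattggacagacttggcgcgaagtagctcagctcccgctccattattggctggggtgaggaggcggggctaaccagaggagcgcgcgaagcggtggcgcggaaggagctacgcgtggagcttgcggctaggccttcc
Mcm5: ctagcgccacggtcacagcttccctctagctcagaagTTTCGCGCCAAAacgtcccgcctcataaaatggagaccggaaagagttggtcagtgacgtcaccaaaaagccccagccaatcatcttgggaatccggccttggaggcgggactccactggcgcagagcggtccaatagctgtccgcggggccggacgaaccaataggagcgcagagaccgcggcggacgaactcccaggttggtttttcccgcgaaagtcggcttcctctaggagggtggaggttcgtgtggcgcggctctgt

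Cytosolic ribosomal protein genes were higher by a small and even amount. Of 67 measured members 66 had a log2 difference above 0, with a median of 0.14, and 36 had an unadjusted p under 0.05, all higher (5.08% of all genes were). Against control there were 43 (3.1% of all genes were higher), against withdrawal 6 of 67 (5.95%), and both conditions held for 6 (1.26%). The median was 0.17 against control, 0.09 against withdrawal and 0.07 for withdrawal against control. Rpsa, a small-subunit protein, was at 333 to 371 CPM in control, 412 to 505 CPM in ethanol and 371 to 432 CPM in withdrawal rats, a difference of 0.30 against control and 0.11 against withdrawal. Rpl31 was at 100.2 to 124 CPM in control, 112 to 148 CPM in ethanol and 105 to 122 CPM in withdrawal rats (0.20 ± 0.06). Rpl13, named after its values were seen, was the one member for which all 6 ethanol rats lay above all 12 others (0.17 ± 0.06). The margin was narrow, with 211.8 CPM in ethanol rat 8 and 211.4 CPM in control rat 2. The count of 36 became 46 without withdrawal rat 13 (7.09% of all genes were higher) and 15 without rats 5, 8, 13 and 17 (7.59%). Ethanol rat 10 had the highest list mean (7.55, next 7.39). Ribosomal genes have many processed copies, and pairs that fit several places were not counted. Of 73 nuclear-encoded subunits of oxidative phosphorylation, 8 were higher and 0 lower at an unadjusted p under 0.05 (5.08% and 4.82% of all genes). Ndufc1, a subunit of complex I, led them, with 77.1 to 84.3 CPM in ethanol rats against 68.2 to 77.9 CPM in control and 63.2 to 76.0 CPM in withdrawal (0.20 ± 0.05).

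**Figure D5:**
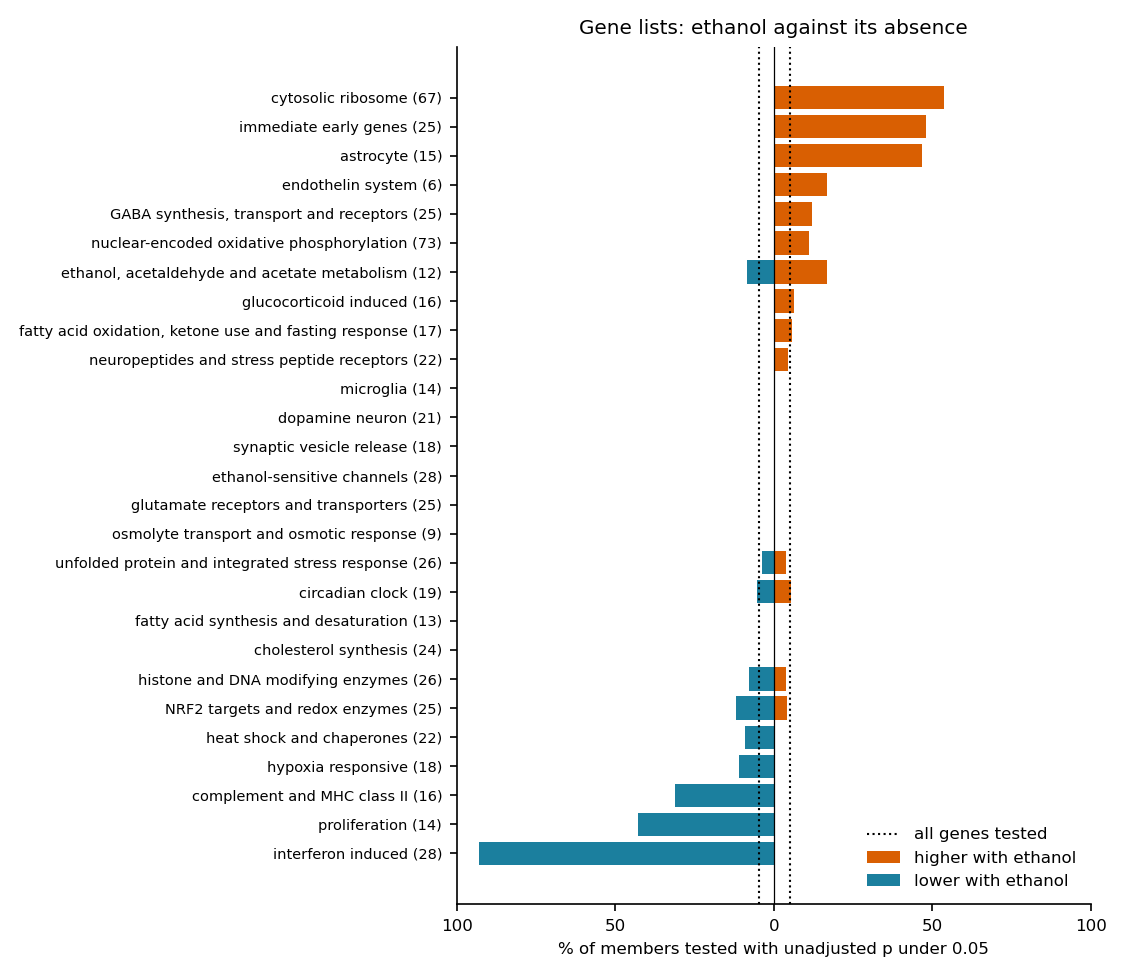
Share of the measured members of each list (number in brackets) with an unadjusted p under 0.05 for ethanol against its absence (horizontal axis, %), higher to the right and lower to the left; dotted lines give all genes, 5.08% and 4.82%. Interferon-induced genes reach 26 of 28 on the lower side, and ribosomal genes 36 of 67 on the higher side.

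Immediate early genes, which neurons switch on within minutes of activity, had a median of 0.44, and 12 of 25 were higher at an unadjusted p under 0.05 (5.08% of all genes were). This rested on ethanol rat 11. Fos was at 123 CPM there and at 4.35 to 21.3 CPM in the other ethanol rats, with 5.55 to 30.3 CPM in control and 8.97 to 27.3 CPM in withdrawal rats. Fosb was at 76.8 CPM in that rat and no higher than 3.62 CPM elsewhere, Npas4 at 40.4 CPM against at most 8.78 CPM, and Btg2 at 106 CPM against at most 25.1 CPM. Without rat 11 the list had a median of 0.04 and 1 higher member (5.01% of all genes were), and the log2 difference was -0.24 for Fos, -0.35 for Fosb and -0.01 for Btg2.

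Lists of genes that handle ethanol's products and the stress it can bring were counted in the same way. Over all genes, 9.9% had an unadjusted p under 0.05 in either direction. These lists are short, so single genes move their shares. Of 12 measured genes of ethanol, acetaldehyde and acetate metabolism, 2 were higher and 1 lower at an unadjusted p under 0.05 (25% of the list), with a median of 0.04. Acss1, the mitochondrial enzyme that activates acetate, was at 37.0 to 58.8 CPM in control, 46.7 to 87.6 CPM in ethanol and 29.7 to 55.0 CPM in withdrawal rats (0.35 ± 0.14, adjusted p = 0.465). Only ethanol rat 10 lay above all others. Aldh1b1, a mitochondrial aldehyde dehydrogenase, had 0.19 ± 0.08, made of 0.04 against control and 0.34 against withdrawal, while Aldh2, the main acetaldehyde-clearing enzyme, had 0.20 ± 0.12 (unadjusted p = 0.118). Of 25 NRF2 targets and redox enzymes 1 was higher and 3 lower (16% of the list). Txnrd1, thioredoxin reductase, was 74.2 to 87.1 CPM in ethanol rats against 81.3 to 88.3 CPM in control and 83.5 to 90.3 CPM in withdrawal (-0.14 ± 0.04). Among 22 heat shock genes 0 were higher and 2 lower (9.09% of the list), among 26 of the unfolded protein response 1 and 1 (7.69%), and among 18 hypoxia genes 0 and 2 (11.1%). Of 16 glucocorticoid-induced genes 1 was higher and 0 lower (6.25% of the list). The gene was Mt2A, a metallothionein. It was at 4.78 to 9.94 CPM in control, 7.86 to 21.0 CPM in ethanol and 5.42 to 12.9 CPM in withdrawal rats. Its difference was 0.84 ± 0.23 (adjusted p = 0.212), and 3 of 6 ethanol rats were above all others. The 19 circadian clock genes had 1 higher and 1 lower (10.5% of the list).

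Receptors and channels on which ethanol acts had 0 to 3 members past that threshold in each list over all 18 rats. Of 25 GABA genes 3 were higher (5.08% of all genes were), with a median of 0.20, and 20 lay above 0. Without rats 5, 8, 13 and 17 there were 10 higher and 1 lower (7.59% and 6.99% of all genes). Gabrd, the delta subunit of extrasynaptic GABA-A receptors, had 2.51 ± 0.69, but ethanol rat 7 had 26.7 CPM and ethanol rat 8 had 5.28 CPM while the other ethanol rats had 0.55 to 1.63 CPM, within the 0.39 to 3.56 CPM of the ethanol-free rats. Without rat 7 the difference was 0.83. Slc6a11, the GABA transporter of astrocytes, was at 246 to 346 CPM in control, 290.3 to 361 CPM in ethanol and 159.7 to 364 CPM in withdrawal rats (0.26 ± 0.12). Of 25 glutamate receptor and transporter genes 22 lay above 0 with a median of 0.10, and 0 had an unadjusted p under 0.05, as did 0 of 28 ethanol-sensitive channels and 0 of 18 genes of vesicle release. Kcnmb4, a regulatory subunit of the BK potassium channel, a direct target of ethanol, had 0.41 ± 0.23 (unadjusted p = 0.0906). Of 22 neuropeptide genes 1 was higher, Cartpt, at 12.1 CPM in ethanol rat 7 and 0.78 to 3.02 CPM elsewhere (log2 difference 1.19, and 0.31 without that rat). For Pmch, a hypothalamic peptide, rat 7, which had the high hypothalamus and thalamus sum, held 292 CPM and no other rat more than 3.80 CPM; the log2 difference was 4.65, and 0.30 without rat 7.

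Dopamine neuron genes overlapped widely between the groups. Th, tyrosine hydroxylase, which limits dopamine synthesis, was at 233 to 763 CPM in control, 69.0 to 730.3 CPM in ethanol and 17.6 to 628 CPM in withdrawal rats, with a difference of 0.19 ± 0.52. Slc6a3, the dopamine transporter, was at 235 to 735 CPM in control, 68.2 to 788 CPM in ethanol and 2.56 to 576 CPM in withdrawal rats, with a difference of 0.21 (unadjusted p = 0.732). Withdrawal rat 17 was the lowest for both genes. None of 21 dopamine neuron markers had an unadjusted p under 0.05. Of 26 histone and DNA modifying enzymes 1 was higher and 2 lower (11.5% of the list, where 9.9% of all genes were either). Hdac2, a histone deacetylase, was at 65.9 to 71.9 CPM in control and 63.4 to 68.6 CPM in ethanol rats. Withdrawal rats had 65.8 to 75.6 CPM apart from rat 13 at 139 CPM. The difference of ethanol from its absence was -0.19 ± 0.12, and -0.08 without rat 13.

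Cholesterol synthesis genes had a course of another form, with the ethanol rats as a group between the ethanol-free groups. Single ethanol rats were split. Rats 7, 8 and 9 had a mean log2 CPM of the list of 6.22, 6.26 and 6.25, where control rats had 6.07 to 6.39. Rats 10, 11 and 12 had 5.92, 5.88 and 6.06, where withdrawal rats had 5.48 to 6.105. Of 24 members 0 had an unadjusted p under 0.05 for ethanol against its absence (median 0.04). The ethanol rats lay below control by a median of -0.15 and above withdrawal by 0.28, and 19 of 24 were lower in withdrawal than in control at an unadjusted p under 0.05 (3.58% of all genes were), with a median of -0.42.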

How the data were processed

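Polyadenylated RNA was sequenced as stranded TruSeq libraries in paired runs of 101 cycles, per the labels' protocols. Per the file headers, the authors counted read pairs on the exons of each gene with featureCounts 1.5.0 on the reverse strand, leaving out pairs whose ends fell on different chromosomes; the submitters' processing notes name STAR 2.5.2a, R 3.3.3 and limma, and the build Rnor_6.0. The deposited values are whole-number counts, not normalized. Symbols for 29322 of 38445 genes came from a RefSeq table of a later build, used for names only; genes without one took 1.21 to 1.86% of a library.

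Genes were kept with filterByExpr and tested two-sided in edgeR 4.0.16 (TMM, quasi-likelihood F-test, R 4.3.3) with 3 groups over 18 libraries and Benjamini-Hochberg adjustment over 17637 genes, calling at 0.05. The main contrast was ethanol minus the mean of control and withdrawal. The SE is the log2 difference over the square root of F, and SDs are between rats. The method was tested on simulated data. No 2 libraries agreed within sampling noise (smallest chi-square per degree of freedom 12.5). Labels name each rat but not its litter or cage.

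Named genes were the 20 of lowest p, the 10 largest rises and 10 largest falls without overlap between ethanol and other rats (all at a mean of 1 CPM or more), the 4 of lowest p in each list, and a few set in advance, of which only some are described; exceptions are said to be such. Some results are not reported here. The members, the 37 lists and the rule were chosen with earlier results of these data known. The alternatives were DESeq2 1.42.0, limma-voom (limma 3.58.1), RLE factors, no low-count filter or one of 1 CPM in 6 libraries, robust fitting, the 12 ethanol-free rats as 1 group with and without the first index, 1 surrogate variable (sva 3.50.0), a covariate for dopamine neuron content, leaving out single rats, an adjusted p of 0.10 and, added after the data were seen, the fit without rats 5, 8, 13 and 17.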

Additional observations from a re-analysis of the deposited data

Results flagged for a closer look

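In 186 groups of 6 rats (62 genes described above, 3 groups each), the highest or lowest rat was tested for standing apart from the others of its group (Dixon's criterion on the gap to the nearest rat as a share of the range), and 29 did. Chance gives about 1 in 20 groups if values are normally distributed, but the criterion was applied to CPM on a linear scale. The 62 genes also include some, such as Pmch, whose difference comes from 1 rat, so 29 cannot be set against that rate. Rats that stand apart do so for many genes at once.

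Ethanol rat 11 stood apart for Fos (123 CPM), Fosb (76.8 CPM), Npas4 (40.4 CPM), Btg2 (106 CPM) and Txnrd1 (87.1 CPM), all high. Control rat 5 was high for Fos (30.3 CPM), Fosb (2.93 CPM) and Npas4 (8.78 CPM) and low for Rpl13 (157 CPM). Withdrawal rat 13 was high for Fos (27.3 CPM), Fosb (3.62 CPM), Btg2 (25.1 CPM), Cartpt (2.54 CPM), Hdac2 (139 CPM) and Mcm4 (79.8 CPM).

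Ethanol rat 10 was high for Timp4 (74.8 CPM), Capn6 (2.44 CPM), Rpsa (505 CPM), Rpl13 (267 CPM) and Acss1 (87.6 CPM). Ethanol rat 7 was high for Gabrd (26.7 CPM), Cartpt (12.1 CPM) and Pmch (292 CPM), and ethanol rat 8 low for Slc6a11 (290.3 CPM). Control rat 3 was high for Slfn4 (9.68 CPM), Oas1a (4.84 CPM), Bst2 (15.2 CPM) and Cfb (32.3 CPM). Withdrawal rat 15 was high for Edn1 (5.93 CPM), the one ethanol-free rat within the ethanol range of that gene.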

How the results depend on the processing

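For ethanol against its absence, edgeR called 0 genes over all rats at an adjusted p of 0.05, and 0 with RLE factors, without the filter, with the stricter filter, with robust fitting, with the first index or the mean dopamine marker level as a covariate and without rats 5, 8, 13 and 17; limma-voom called 0 as well. DESeq2 called 169, 1 surrogate variable 20, the 12 ethanol-free rats as 1 group 2, and a threshold of 0.10 gave 2. Leaving out 1 rat gave 0 to 27 calls: 27 without withdrawal rat 13, and 1 without each of ethanol rat 11 and withdrawal rats 15, 16 and 18. Against both control and withdrawal DESeq2 called 3, and leaving out 1 rat gave 0 to 0. For withdrawal against control DESeq2 called 47, 1 surrogate variable 2, and leaving out 1 rat 0 to 2 (2 without withdrawal rat 13, and 1 without each of control rat 3 and ethanol rats 10 and 11). The cause was not tested.

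The log2 differences of 62 genes kept their sign in 1789 of 1798 values under other settings, and 34 genes passed an adjusted p of 0.05 in at least 1. The sign turned in 9. With 1 rat left out, values ran from -0.243 to 1.54 for Fos, -0.353 to 3.54 for Fosb and -0.00698 to 1.42 for Btg2 (each lowest without ethanol rat 11), and from -0.00523 to 0.420 for Th and -0.0414 to 0.437 for Slc6a3 (lowest without ethanol rat 12). With the first index Th was at -0.109 and Slc6a3 at -0.0318, and Ednrb was at -0.000753 with 1 surrogate variable and -0.0360 without rats 5, 8, 13 and 17. List medians ran from -0.98 to -0.63 for interferon-induced genes, -0.84 to -0.47 for complement and MHC class II, -0.52 to -0.17 for proliferation, 0.09 to 0.16 for the ribosome and 0.18 to 0.25 for astrocyte markers. No paired analysis was possible because the groups share no replicate numbers. Depth limits the lowest genes: 3 counts stood for up to 0.104 CPM, and Oas1a had a mean of 1.07 CPM in ethanol rats.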
